A study of Mus musculus with 15 samples.

Results

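Serpins are a superfamily of proteins named for serine protease inhibition, and the members described here are all genes on a mouse whole-genome array whose name is Serpin followed by a clade letter from a to i and a number. The rule took 59 of the 31829 gene names on the array, measured by 75 probes, and each gene is represented by its brightest probe. They comprise 22 genes of clade A, 26 of clade B and 11 of clades C to I. The measurements come from total RNA of 15 mouse embryonic stem (ES) cell samples, each labelled with the dye Cy3 and hybridised alone to an Agilent 1-colour array. The 4 groups were untreated cells with the hairpin shCTR (4 arrays), untreated cells with the hairpin sh4 (4 arrays), and cells with shCTR (4 arrays) or sh4 (3 arrays) exposed for 72 hours to retinoic acid at 1 µM, a signal under which ES cells differentiate. All groups carry a short hairpin RNA, and the cell line, clone and culture time of the untreated cells are not given in the sources used here. The labels do not say what sh4 targets, and the series title names Phf19, a subunit that associates with Polycomb repressive complex 2 (PRC2). The titles call the samples biological replicates but do not say whether cultures were separate, so each p-value reflects the spread among these samples alone, which may be technical. The untreated labels give no time, so an effect of retinoic acid and one of time in culture cannot be told apart.

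An inhibitory serpin offers a protease an exposed loop as bait. When the protease cuts the loop, the serpin folds around the cut and holds the enzyme in an inactive covalent complex that cells clear through receptors of the LDL receptor family. Secreted serpins control coagulation, fibrinolysis and complement, the mostly intracellular serpins of clade B guard cells against proteases such as granzymes and cathepsins, and some members inhibit nothing and serve as a collagen chaperone, hormone carriers or signalling proteins. In the early mouse embryo the extraembryonic endoderm makes many proteins, serpins among them, that the liver secretes later. The mouse carries expanded arrays of near-identical serpins, above all the Serpina1 and Serpina3 genes on chromosome 12 and the Serpinb9 and Serpinb6 genes on chromosome 13.

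The promoters of Serpinb9, Serpinb9d, Serpinb9e, Serpinb9f and Serpinb9g are shown because these neighbouring genes rose together in the data described further on. Serpinb9c rose with them, but its promoter is not printed. The promoters of Serpinf1 and Serpina3g are shown because each gene had a large response to retinoic acid. Each is the strand of the gene, 5′ to 3′, from 250 bases before to 50 bases after the start, from RefSeq on GRCm38.p6. Capitals mark AGGTCA on either strand, the 6 letters bound by nuclear receptors that include the retinoic acid receptors. The places are chr13:33004291-33004590 (plus strand) for Serpinb9, chr13:33192705-33193004 (plus) for Serpinb9d, chr13:33249358-33249657 (plus) for Serpinb9e, chr13:33323827-33324126 (plus) for Serpinb9f and chr13:33484540-33484839 (plus) for Serpinb9g. Serpinf1 lies at chr11:75422574-75422873 (minus) and Serpina3g at chr12:104235897-104236196 (plus).
Serpinb9: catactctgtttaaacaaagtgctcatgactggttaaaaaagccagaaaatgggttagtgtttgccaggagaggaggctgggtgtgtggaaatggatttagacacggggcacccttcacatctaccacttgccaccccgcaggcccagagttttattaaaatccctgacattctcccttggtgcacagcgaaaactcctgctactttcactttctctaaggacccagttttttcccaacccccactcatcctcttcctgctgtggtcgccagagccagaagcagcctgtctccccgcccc
Serpinb9d: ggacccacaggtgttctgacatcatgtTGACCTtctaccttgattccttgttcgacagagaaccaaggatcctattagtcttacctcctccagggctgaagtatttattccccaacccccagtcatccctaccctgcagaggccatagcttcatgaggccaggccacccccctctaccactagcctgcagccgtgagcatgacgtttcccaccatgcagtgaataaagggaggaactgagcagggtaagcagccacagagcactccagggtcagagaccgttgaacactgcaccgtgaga
Serpinb9e: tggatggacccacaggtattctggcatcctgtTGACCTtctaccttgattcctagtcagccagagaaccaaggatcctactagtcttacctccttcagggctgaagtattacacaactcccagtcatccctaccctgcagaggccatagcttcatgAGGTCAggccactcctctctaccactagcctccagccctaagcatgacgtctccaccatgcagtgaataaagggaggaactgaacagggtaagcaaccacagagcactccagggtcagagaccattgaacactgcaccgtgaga
Serpinb9f: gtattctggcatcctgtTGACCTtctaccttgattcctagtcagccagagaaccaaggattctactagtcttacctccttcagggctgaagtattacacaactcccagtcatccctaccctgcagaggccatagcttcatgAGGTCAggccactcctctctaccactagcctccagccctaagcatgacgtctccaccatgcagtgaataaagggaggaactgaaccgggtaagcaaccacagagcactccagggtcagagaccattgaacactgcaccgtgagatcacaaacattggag
Serpinb9g: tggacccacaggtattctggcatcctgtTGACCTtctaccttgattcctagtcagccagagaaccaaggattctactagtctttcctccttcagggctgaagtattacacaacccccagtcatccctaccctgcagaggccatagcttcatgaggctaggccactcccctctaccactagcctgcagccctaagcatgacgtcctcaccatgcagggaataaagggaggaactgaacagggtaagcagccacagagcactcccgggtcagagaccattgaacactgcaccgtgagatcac
Serpinf1: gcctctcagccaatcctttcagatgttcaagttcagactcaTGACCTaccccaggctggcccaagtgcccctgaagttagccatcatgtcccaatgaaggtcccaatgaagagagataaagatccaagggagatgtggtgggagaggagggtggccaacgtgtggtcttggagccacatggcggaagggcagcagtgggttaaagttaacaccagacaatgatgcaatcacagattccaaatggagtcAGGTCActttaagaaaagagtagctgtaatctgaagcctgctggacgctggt
Serpina3g: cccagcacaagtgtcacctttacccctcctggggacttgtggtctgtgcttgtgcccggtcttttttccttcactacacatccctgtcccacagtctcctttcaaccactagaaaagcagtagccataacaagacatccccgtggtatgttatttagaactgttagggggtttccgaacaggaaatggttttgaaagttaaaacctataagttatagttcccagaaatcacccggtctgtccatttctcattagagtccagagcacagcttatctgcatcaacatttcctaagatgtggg

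The Serpinb9d, Serpinb9e, Serpinb9f and Serpinb9g promoters are 83.2% to 93.4% identical to each other over the aligned columns, with Serpinb9e and Serpinb9g the closest pair. The Serpinb9 promoter is 47.0% to 48.9% identical to those 4, and 46.2% to 48.9% identical to the promoters of Serpinb6a, Serpinb6b and Serpinb6c. The Serpinb9c promoter is 62.3% to 65.1% identical to those of Serpinb9d, Serpinb9e, Serpinb9f and Serpinb9g, and 49.6% to that of Serpinb9. AGGTCA occurs 2 times in Serpinb9e, Serpinb9f and Serpinf1, 1 time in Serpinb9d and Serpinb9g, and in neither Serpinb9 nor Serpina3g. Among 35 tested members with a promoter entry, each taken at its first listed start, 12 hold AGGTCA, against 16.2% of all 32544 promoters in the table. The 12 include the similar promoters of Serpinb9d, Serpinb9e, Serpinb9f and Serpinb9g, so they are not independent. Serpinb12 and Serpinb1c hold it only at another listed start and are not among the 12. The other motifs searched on both strands were TATAAA (7 of 35 members, 13.6% of all promoters), TGACTCA (4 and 5.19%), AGATAA (5 and 11.2%), GAANNTTC (3 and 7.89%) and CACCC (19 and 57.7%). A match is a description of the letters and says nothing about binding.

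Probes of neighbouring paralogues also share sequence, which limits how far their values can be told apart. The shared runs of the pairs that matter below are printed for that reason, the first whole and the second as its first 30 of 41 bases.
Serpinb6a and Serpinb6c: aagtgaccttatccataagtgcaatg
Serpinb9f and Serpinb9g: gagtcctctaacaaatggccatttctatct
The Serpinb6e probe shares 18 bases with the Serpinb6a probe and 21 with the Serpinb6c probe, and the probes of Serpina1a and Serpina1c share 47. In the files, the Serpinb9f probe lists transcripts of both Serpinb9e and Serpinb9f, and the Serpina1c probe lists transcripts of 4 Serpina1 genes.

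Phf19 itself read −1.10 to −0.81 in untreated shCTR and −2.72 to −2.63 in untreated sh4, and −3.17 to −2.92 against −4.09 to −3.82 after retinoic acid, so the groups did not overlap. Its level in sh4 was 30.3% of shCTR untreated and 54.4% with retinoic acid. These levels, and all below, are log2 of the probe's processed signal over the 75th percentile of its array, so 0 is that percentile and a difference of 1 is a 2-fold difference. The ES cell label was borne out by 8 of 8 ES cell markers, among them Pou5f1, well above background on every array, and all 8 fell with retinoic acid in both hairpins. On each array 73.8% to 79.4% of probes were well above background, and no serpin probe was saturated. The scanner software rated 3 arrays for evaluation (untreated shCTR replicate 2, untreated sh4 replicate 3 and retinoic acid-treated sh4 replicate 1). The arrays lay on 4 slides, and arrays of one slide deviated together (r = 0.115 to 0.607 over genes in all pairs of one slide), so the value with slide as a block is given where it changes a call. The number of arrays limits the precision.

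A gene entered the test where its probe stood well above background on 3 or more arrays of any group, which 44 of the 59 serpins did. Of all 59, 27 were well above background on all 15 arrays and 12 on none. The 15 that did not enter were Serpina12, Serpina3a, Serpina4-ps1, Serpina5, Serpinb10, Serpinb13, Serpinb1b, Serpinb2, Serpinb3a, Serpinb3b, Serpinb3d, Serpinb7, Serpinb9b, Serpine3 and Serpini2, for which no level is given. With limma's moderated test and Benjamini-Hochberg adjustment over all 25090 genes, a difference was called at an adjusted p under 0.05. Retinoic acid against untreated in shCTR was called for 27 of 44 serpins (61.4%), 24 up and 3 down, where 62.5% of all genes were called. The same comparison in sh4 was called for 25 (56.8%), 19 up and 6 down, against 58.7% of all genes, 27.2% up and 31.5% down. The share of serpins called was thus near that of all genes in both, while the direction was mostly up: 29.1% of all genes rose and 33.4% fell in shCTR, and the median change was 0.79 over the serpins and −0.12 over all genes. At least 2-fold changes were called for 22 of 44 serpins in shCTR (50%) and 20 in sh4 (45.5%), against 27.9% and 25.6% of all genes. The median change of all genes moved from −0.12 to −0.36 in shCTR and to −0.29 in sh4 when arrays were scaled on their median, and to −0.23 in shCTR with normexp, another background correction, so changes within about that size are relative to the scaling. Normexp was run with an offset of 50 intensity units, which by itself shrinks the log2 changes of dim probes. A call lost with normexp on a dim probe may therefore reflect the offset. Median scaling gave 5575 genes up and 10911 down in shCTR, against 7304 and 8371. The comparisons of retinoic acid and of the hairpins share arrays and are not independent of each other.

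Between the hairpins, sh4 against shCTR in untreated cells was called for 14 of 44 serpins (31.8%), 11 up and 3 down, against 28.6% of all genes (14.5% up and 14.1% down). In retinoic acid it was called for 16 (36.4%), 8 up and 8 down, against 21.4% of all genes (11.1% up and 10.3% down). At least 2-fold hairpin changes were called for 7 serpins untreated (15.9%) and 10 in retinoic acid (22.7%), against 6.54% and 3.4% of all genes. The difference between both hairpin effects (the interaction, in retinoic acid minus untreated) was called for 15 serpins, 4 positive and 11 negative, against 20.6% of all genes (10.3% each way), and at least 2-fold for 7 (15.9%), all negative, against 5.91%. The 44 passed partly through the group in which each was high, so these counts are descriptions. The background correction mattered for the split: with normexp the counts were 18 up and 7 down for retinoic acid in shCTR, 4 up and 2 down for the untreated hairpins, and 6 positive and 8 negative for the interaction. In the authors' deposited log2 values the interaction gave 7 positive and 11 negative. Clade A had no call between untreated hairpins by the brightest probes (0 of 18 by limma), although a second probe of Serpina3h was called there, while clade B had 9 of 17.

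Serpinh1 (probe at chr7:106493971-106494030 on mm9), the endoplasmic reticulum chaperone HSP47 that binds folded procollagen, rose 19.6-fold in shCTR. Serpinh1 read 2.01, 1.80, 2.00 and 1.85 on the untreated shCTR arrays and 1.91, 1.89, 1.83 and 1.91 on those of sh4. With retinoic acid, Serpinh1 read 6.28, 6.21, 6.14 and 6.19 in shCTR and 5.57, 5.69 and 5.43 in sh4. The untreated groups overlapped, the treated arrays were all far higher, and every treated sh4 array lay below every treated shCTR array. The log2 change with retinoic acid was 4.29 ± 0.07 (SE) in shCTR (adjusted p = 1.8e-14) and 3.68 ± 0.07 in sh4. In retinoic acid sh4 was lower, at a difference of −0.64 ± 0.07 (adjusted p = 4.0e-05), and the hairpin effects differed by −0.61 ± 0.10 (adjusted p = 7.6e-04). Of 18 measured genes of collagen folding and secretion, 14 rose and 1 fell with retinoic acid in shCTR, and 10 were lower and 2 higher in sh4 than in shCTR under retinoic acid (median −0.40, against 0.04 for all genes). Among the lower ones were Plod2, a lysyl hydroxylase (−1.22), and Crtap, a subunit of the collagen prolyl hydroxylation complex (−0.97), and Pcolce, an enhancer of procollagen C-terminal cleavage, was higher (0.95). Of 10 fibroblast markers, 8 rose and 1 fell with retinoic acid in shCTR, and 8 rose and 2 fell in sh4. In untreated sh4 4 were higher and 3 lower than in shCTR, and in treated sh4 1 was higher and 1 lower. Their mean levels per array, which hide these opposite moves, were −5.44 to −5.13 in untreated shCTR and −4.89 to −4.67 in untreated sh4. With retinoic acid their means were −1.50 to −1.29 in shCTR and −1.40 to −1.35 in sh4. Their part in the Serpinh1 change was not tested.

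Serpine2 and Serpinf2, which act on fibrinolysis, rose with retinoic acid in both hairpins. Serpine2, protease nexin 1, inhibits thrombin and plasminogen activators at the cell surface. Serpine2 read −3.86, −3.76, −3.68 and −3.69 on the untreated shCTR arrays and −2.86, −2.78, −2.67 and −2.68 on those of sh4. With retinoic acid, Serpine2 read −2.11, −2.17, −2.09 and −2.25 in shCTR and −1.53, −1.67 and −1.64 in sh4. The 4 groups lay in 4 steps without overlap, from untreated shCTR through untreated sh4 and treated shCTR to treated sh4. The hairpin difference was 1.00 ± 0.07 untreated (adjusted p = 9.3e-08) and 0.54 ± 0.07 in retinoic acid (adjusted p = 1.1e-04). That difference between hairpin effects (−0.46) was not called with median scaling, quantile normalisation, normexp or the authors' deposited log2 values (limma adjusted p = 0.075 to 0.48).

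Serpinf2, alpha-2-antiplasmin, blocks plasmin itself and had the largest fitted change with retinoic acid in shCTR among the members above background in every group. Serpinf2 read −6.34, −6.13, −6.28 and −6.42 on the untreated shCTR arrays and −6.89, −6.45, −6.70 and −8.28 on those of sh4. With retinoic acid, Serpinf2 read −1.94, −1.97, −1.67 and −1.75 in shCTR and −3.78, −3.62 and −3.60 in sh4. Treated shCTR lay highest and treated sh4 between it and the untreated groups, with no overlap between any groups. Serpinf2 rose 22-fold in shCTR (4.46 ± 0.29, adjusted p = 1.2e-08) and 10.6-fold in sh4 (3.41 ± 0.32). In retinoic acid it was 3.57-fold lower in sh4 (−1.84 ± 0.32, adjusted p = 9.4e-04), and the untreated difference of −0.79 ± 0.29 was not called (adjusted p = 0.064), but was with slide as a block (adjusted p = 0.042). Untreated sh4 replicate 4, at −8.28, was not well above background. Without it the untreated difference was −0.39 and called (adjusted p = 0.026), and the interaction went from −1.05, not called (adjusted p = 0.12), to −1.45, called (adjusted p = 6.4e-05). The proteases of this system rose with the inhibitors: of the 4 listed genes, the plasminogen activators Plat changed by 8.63 and Plau by 4.94, and the receptor Plaur by 2.99 with retinoic acid in shCTR, all called, and Plg was well above background on no array. Plat and Plau were well above background on no untreated shCTR array, so those fitted changes are not folds. Plaur was higher in untreated sh4 (1.55) and lower in treated sh4 (−0.99).

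Serping1, the C1 inhibitor of complement and of the contact system, also rose. Serping1 read −1.52, −1.51, −1.26 and −1.17 on the untreated shCTR arrays and −1.01, −1.10, −0.65 and −0.74 on those of sh4. With retinoic acid, Serping1 read 0.73, 0.68, 0.95 and 0.99 in shCTR and 0.28, 0.56 and 0.80 in sh4. Untreated sh4 lay above untreated shCTR on every array and the treated groups overlapped. The change with retinoic acid was 2.20 ± 0.14 in shCTR (adjusted p = 6.6e-09) and 1.42 ± 0.15 in sh4, and the untreated hairpin difference of 0.49 ± 0.14 (adjusted p = 0.016) was not called under median scaling (adjusted p = 0.15), without untreated sh4 replicate 3 (adjusted p = 0.051) or without the arrays rated for evaluation (adjusted p = 0.086). The treated difference of −0.29 ± 0.15 was not called (adjusted p = 0.21), but with slide as a block it was (−0.24, adjusted p = 0.032). Of 4 measured proteases of the complement C1 and lectin pathways, Masp1, well above background on 1 of 4 untreated shCTR arrays, changed by 2.37 and Masp2 by −2.62 with retinoic acid in shCTR, both called. C1ra was lower in untreated sh4 (−1.18) and fell with retinoic acid in shCTR (−0.35).

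Serpinf1, pigment epithelium-derived factor (PEDF), is a secreted signalling protein that inhibits no protease. Serpinf1 read −1.78, −2.03, −1.60 and −1.54 on the untreated shCTR arrays and −2.06, −2.38, −2.08 and −2.06 on those of sh4. With retinoic acid, Serpinf1 read 1.71, 1.71, 2.01 and 1.95 in shCTR and 2.13, 2.08 and 2.39 in sh4. Untreated sh4 was lowest and treated sh4 highest, with no overlap between any groups. Serpinf1 rose 12-fold in shCTR (3.58 ± 0.12, adjusted p = 1.6e-11) and 20.3-fold in sh4 (4.34 ± 0.13, adjusted p = 8.5e-12), and the rise was greater in sh4 by 0.76 ± 0.18 (adjusted p = 0.0089). The untreated hairpin difference of −0.41 ± 0.12 was called (adjusted p = 0.024), but not without untreated sh4 replicate 2, shCTR replicate 3 or shCTR replicate 4 (adjusted p = 0.073 to 0.078), nor with median scaling (adjusted p = 0.11). Between the treated hairpins Serpinf1 differed by 0.36 ± 0.13, not called (adjusted p = 0.081), but by 0.40 and called with slide as a block (adjusted p = 0.0021), and by 0.41 and called in the authors' deposited log2 values, while its neighbour Serpinf2 on the same strand of chromosome 11 was lower in treated sh4. A second Serpinf1 probe gave 3.54 and 4.21 with retinoic acid in shCTR and sh4. Its hairpin calls were the reverse of those of the brightest probe, at −0.28 untreated, not called (adjusted p = 0.065), and 0.39 in retinoic acid, called (adjusted p = 0.026), while the interaction was called by both (0.67, adjusted p = 0.0072, by the second probe).

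Among the serpins of coagulation, Serpinc1 is antithrombin, which inhibits thrombin and factor Xa with heparin as cofactor. Serpinc1 read −5.83, −5.85, −6.10 and −6.04 on the untreated shCTR arrays and −6.35, −6.74, −7.14 and −6.39 on those of sh4. With retinoic acid, Serpinc1 read −5.23, −5.11, −5.26 and −5.16 in shCTR and −5.13, −5.13 and −5.32 in sh4. Untreated sh4 was lowest and the treated groups overlapped. It rose by 0.77 ± 0.15 in shCTR and 1.46 ± 0.16 in sh4, from a lower start in untreated sh4 (−0.70 ± 0.15, adjusted p = 0.0024). At signals of 11.7 to 57 intensity units it depended on the background correction. With normexp, whose offset of 50 shrinks changes at such signals, the change in shCTR was 0.06 and that between untreated hairpins −0.28. Neither was called. Serpind1, heparin cofactor II, inhibits thrombin. Serpind1 read −9.83, −10.15, −9.66 and −9.57 on the untreated shCTR arrays and −9.88, −9.99, −9.41 and −10.47 on those of sh4. With retinoic acid, Serpind1 read −6.87, −7.24, −7.05 and −6.95 in shCTR and −7.47, −7.40 and −7.45 in sh4. No untreated array was well above background and all 7 treated ones were. Serpind1 was at least 1.91-fold higher with retinoic acid in shCTR (adjusted p = 1.5e-08) and at least 1.43-fold in sh4, where "at least" sets the dim group to the lowest signal that counted as well above background on each array and the p belongs to the fitted change. Neither was called with normexp.

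Of 12 measured coagulation and contact factors, 5 were lower and 1 higher in sh4 than shCTR in retinoic acid, with a median of −0.04, against 0.04 for all genes. F2, prothrombin, differed by −2.74, Proc, protein C, by −1.96 and Thbd, thrombomodulin, by −0.86. With retinoic acid in shCTR only 2 of the 12 rose: Thbd (4.42) and F3, tissue factor (3.21). Serpini1, neuroserpin, a neuronal inhibitor of Plat, was one of 3 serpins that fell with retinoic acid in shCTR, beside Serpinb1a and Serpina7. Serpini1 read −1.52, −1.55, −1.59 and −1.60 on the untreated shCTR arrays and −1.58, −1.61, −1.45 and −1.63 on those of sh4. With retinoic acid, Serpini1 read −3.04, −3.01, −2.99 and −2.92 in shCTR and −2.69, −2.75 and −2.53 in sh4. The untreated groups overlapped and all treated arrays were lower, those of shCTR lowest. It fell by 1.42 in shCTR (SE 0.06, adjusted p = 1.8e-10) and by 1.09 in sh4 on the log2 scale. Its second probe gave −0.50 and −0.79, and −0.20 between the treated hairpins (adjusted p = 0.28) where the brightest probe gave 0.33 ± 0.07, so its hairpin difference depends on the probe.

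**Figure D1:**
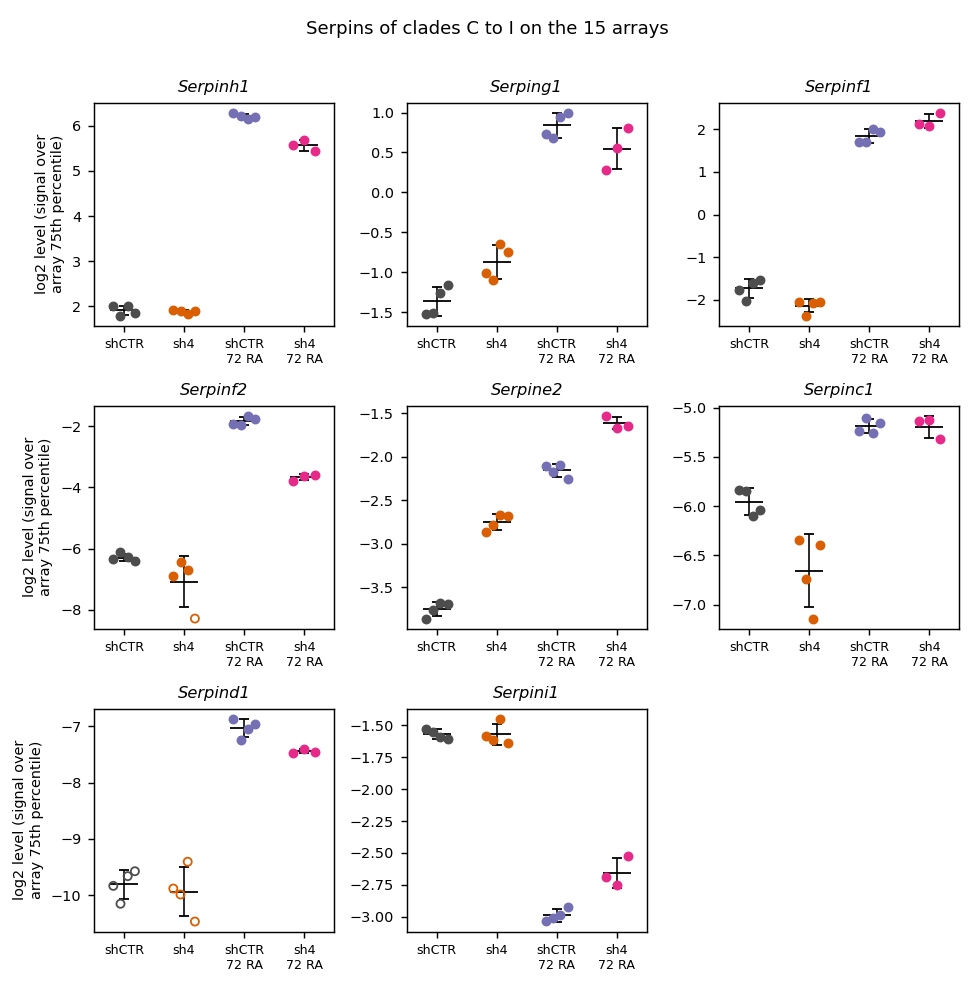
Log2 levels of 8 serpins of clades C to I on each of the 15 arrays, by group (x axis). Each point is 1 array, open where the probe was not well above background, and the bar and whiskers are the group mean and SD. Serpinh1, Serpinf1 and Serpinf2 show the largest steps with retinoic acid, and Serpinf2 is lower in treated sh4 than in treated shCTR while the Serpinf1 arrays lie higher.

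In clade A, retinoic acid in shCTR was called for 7 of 18 tested genes, 6 up and 1 down, and in sh4 for 5, 4 up and 1 down. These are smaller shares than the 62.5% and 58.7% of all genes called in the same comparisons. Of the genes that rose, one set had a much smaller rise in sh4, and another reached similar levels in both treated hairpins. Serpina3m and Serpina3c belong to the antichymotrypsin-like genes of chromosome 12. Serpina3m read −6.39, −6.42, −6.49 and −6.66 on the untreated shCTR arrays and −6.41, −6.51, −6.44 and −6.45 on those of sh4. With retinoic acid, Serpina3m read −3.10, −3.23, −2.86 and −2.76 in shCTR and −5.21, −5.45 and −5.02 in sh4. The untreated groups overlapped, and the treated sh4 arrays lay between them and treated shCTR. Serpina3m rose 11.3-fold in shCTR (3.50 ± 0.11, adjusted p = 7.5e-12) and 2.34-fold in sh4 (1.23 ± 0.12). In retinoic acid it was lower in sh4 (−2.24 ± 0.12, adjusted p = 4.1e-08).

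Serpina3c read −7.37, −7.17, −7.89 and −8.12 on the untreated shCTR arrays and −7.92, −6.83, −7.35 and −8.16 on those of sh4. With retinoic acid, Serpina3c read −4.30, −4.28, −4.43 and −4.58 in shCTR and −6.84, −6.42 and −6.34 in sh4. Unlike for Serpina3m, only treated shCTR stood clear of the rest. Treated sh4 overlapped untreated sh4, and 2 of 4 arrays of each untreated group were well above background. The change with retinoic acid was 3.24 ± 0.27 in shCTR and 1.03 ± 0.29 in sh4, and the treated hairpin difference −2.14 ± 0.29 (adjusted p = 1.5e-04). Serpina10, the protein Z-dependent inhibitor of coagulation factor Xa, was again highest in treated shCTR. Serpina10 read −4.34, −3.85, −5.19 and −4.44 on the untreated shCTR arrays and −3.98, −4.60, −4.93 and −4.47 on those of sh4. With retinoic acid, Serpina10 read −2.27, −2.33, −2.08 and −1.82 in shCTR and −4.39, −3.98 and −4.58 in sh4. Treated sh4 overlapped both untreated groups and treated shCTR lay above all. Serpina10 rose 5.02-fold in shCTR (2.33 ± 0.26, adjusted p = 3.1e-06), differed by 0.18 ± 0.28 in sh4 (adjusted p = 0.63), and was lower in treated sh4 (−2.19 ± 0.28, adjusted p = 9.6e-05). Its second probe gave −2.32 between the treated hairpins.

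The interaction was −2.27 ± 0.16 for Serpina3m (adjusted p = 6.8e-07), −2.21 ± 0.40 for Serpina3c (adjusted p = 0.0014) and −2.15 ± 0.39 for Serpina10 (adjusted p = 0.0014), the 3 most negative called among the serpins. With normexp they were −1.20, −0.56 (not called) and −1.42, and the rises of Serpina3m and Serpina3c in sh4 were 0.34 and 0.12, not called. Serpina6, the corticosteroid-binding globulin, was not called by its brightest probe (0.27 ± 0.33 with retinoic acid in shCTR), but its second probe gave 1.89 there (adjusted p = 2.6e-04) and −2.32 between the treated hairpins (adjusted p = 5.3e-04). Serpina6 lies next to Serpina10. Serpina1f, of the alpha-1-antitrypsin-like genes, rose by 0.99 ± 0.23 in shCTR (adjusted p = 0.0019). Its hairpin differences and interaction were not called here but were with slide as a block, at 0.38 untreated, −0.44 in retinoic acid and −0.81 for the interaction (adjusted p = 0.047, 0.049 and 0.012).

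Markers of visceral endoderm moved partly as this set did. Of 10 listed, 9 rose with retinoic acid in shCTR. In treated sh4, 9 were lower than in treated shCTR (median −2.43), among them Hnf4a (−3.51), Ttr (−3.41) and Cubn (−2.99). In untreated sh4, 5 of the 10 were lower and 1 higher, whereas Serpina3m, Serpina3c and Serpina10 had no untreated hairpin call. With retinoic acid in sh4, 6 of the 10 rose and 1 fell. The mean level of the 10 on an array ranged from −4.21 to −4.01 in untreated shCTR, −4.73 to −4.55 in untreated sh4, −1.04 to −0.67 in treated shCTR and −2.97 to −2.89 in treated sh4, and all 10 were well above background on every treated array. Of 7 measured parietal endoderm markers, 6 were lower in treated sh4, with mean levels of 2.37 to 2.58 in treated shCTR and 1.00 to 1.17 in treated sh4. Of 6 measured liver markers 2 rose with retinoic acid in shCTR, Fgb (4.28, well above background on 1 of 4 untreated shCTR arrays) and Hp (0.81), and 2 fell, Ahsg (−1.48) and Cps1 (−0.83), with mean levels over the 8 listed of −6.15 to −5.90 in untreated and −5.62 to −5.40 in treated shCTR, and Fgb (−2.74) and Ahsg (−1.03) were lower in treated sh4. Alb, albumin, was well above background on no array. The part of these cell types in the serpin changes was not tested. In bulk samples, fewer cells of a type and less RNA per cell cannot be told apart.

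The second set reached similar levels in both treated hairpins. Serpina3g (Spi2A), is an inhibitor of cathepsins in the cytosol. Serpina3g read −8.17, −9.65, −9.53 and −8.63 on the untreated shCTR arrays and −8.68, −7.91, −9.39 and −8.71 on those of sh4. With retinoic acid, Serpina3g read −4.37, −4.46, −4.06 and −4.10 in shCTR and −4.37, −4.42 and −4.31 in sh4. No untreated array and every treated array was well above background, and the treated groups overlapped. Serpina3g was at least 13.1-fold higher with retinoic acid in shCTR (adjusted p = 2.2e-08) and at least 12.1-fold in sh4 (adjusted p = 1.7e-07), with a treated hairpin difference of −0.12 ± 0.36 (adjusted p = 0.9). Serpina3n is an antichymotrypsin-like gene known from inflamed and injured tissue. Serpina3n read −9.62, −8.46, −10.12 and −10.00 on the untreated shCTR arrays and −9.87, −10.06, −9.87 and −8.85 on those of sh4. With retinoic acid, Serpina3n read −7.03, −7.26, −7.60 and −7.09 in shCTR and −7.41, −7.32 and −7.07 in sh4. It too was well above background on all 7 treated arrays and on no untreated one, at least 1.65-fold higher in shCTR and at least 1.62-fold in sh4, but with normexp neither was called (−0.12 and 0.18).

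Serpina7, the thyroxine-binding globulin on the X chromosome, fell with retinoic acid. Serpina7 read −8.01, −7.71, −8.16 and −7.91 on the untreated shCTR arrays and −7.00, −7.19, −6.69 and −6.63 on those of sh4. With retinoic acid, Serpina7 read −10.21, −10.21, −8.39 and −9.17 in shCTR and −9.53, −8.17 and −8.18 in sh4. It was well above background on 1 of 4 untreated shCTR arrays, all 4 untreated sh4 arrays and no treated array. The untreated groups did not overlap, yet their difference of 1.07 ± 0.39 was not called (adjusted p = 0.059). It was called without treated sh4 replicate 1 or treated shCTR replicate 3 (adjusted p = 0.023 to 0.033) and with slide as a block (adjusted p = 0.035). With retinoic acid it was at least 2.17-fold lower in sh4 (adjusted p = 0.0027) and at least 1.05-fold lower in shCTR (adjusted p = 0.0034), and the former was not called with normexp (−0.28), nor the latter in the authors' deposited log2 values (−0.13). Serpina3h was uncalled by its brightest probe (−1.03 ± 0.81 with retinoic acid in shCTR), whereas its second probe gave 4.51 in shCTR and 3.73 in sh4 (adjusted p = 1.5e-08 and 3.0e-07), and 1.13 between the untreated hairpins (adjusted p = 0.012). Across the 797 kb of chromosome 12 with 17 tested clade A genes, 6 rose and none fell with retinoic acid in shCTR, and of the 3 other gene names there none rose and 2 fell. Over all genes 29.1% rose and 33.4% fell in that comparison, so the share of these serpins that rose was near that of all genes.

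**Figure D2:**
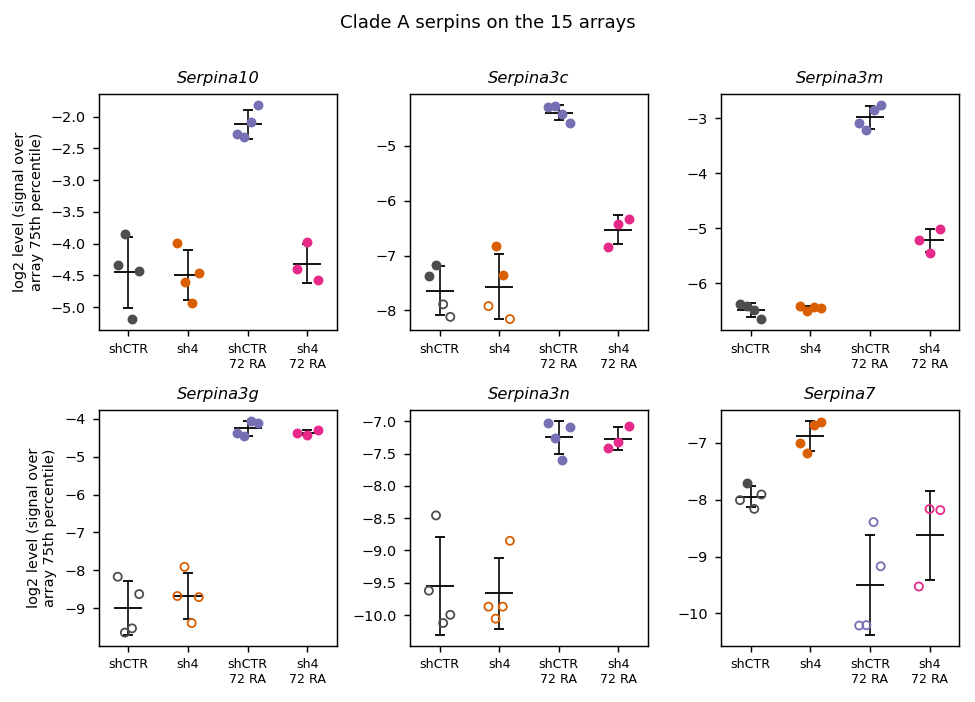
Log2 levels of 6 clade A serpins on each of the 15 arrays, by group (x axis), with open points where the probe was not well above background and bars for mean and SD. Serpina10, Serpina3c and Serpina3m are highest in treated shCTR only, Serpina3g and Serpina3n are high in both treated groups, and Serpina7 is lower in both.

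By their brightest probes, the clade B genes of the Serpinb9 group were higher with retinoic acid in both hairpins, and all 6 were higher in treated sh4 than in treated shCTR. Between the untreated hairpins 5 of the 6 were called higher in sh4. Serpinb9 inhibits granzyme B and protects cells that make or meet that protease. Serpinb9 read −6.66, −7.23, −6.83 and −6.68 on the untreated shCTR arrays and −5.33, −5.18, −5.69 and −5.21 on those of sh4. With retinoic acid, Serpinb9 read −3.24, −3.06, −3.15 and −3.46 in shCTR and −2.18, −2.22 and −2.32 in sh4. No 2 groups overlapped: untreated shCTR was lowest, then untreated sh4, treated shCTR and treated sh4. Serpinb9 was 2.82-fold higher in sh4 untreated (1.50 ± 0.14, adjusted p = 2.7e-06) and 1.99-fold in retinoic acid (0.99 ± 0.15, adjusted p = 4.0e-04). With retinoic acid it rose 12.3-fold in shCTR (3.62 ± 0.14, adjusted p = 5.6e-11) and 8.65-fold in sh4 (3.11 ± 0.15).

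The paralogues next to it followed the same order, and their target proteases are less well known. Serpinb9g read −7.73, −8.58, −8.53 and −7.99 on the untreated shCTR arrays and −6.32, −6.32, −6.03 and −5.93 on those of sh4. With retinoic acid, Serpinb9g read −4.95, −5.18, −5.03 and −4.98 in shCTR and −3.17, −3.32 and −3.21 in sh4. Untreated shCTR was well above background on no array, so Serpinb9g was at least 3.5-fold higher in untreated sh4 (adjusted p = 6.5e-07) and at least 7.58-fold higher with retinoic acid in shCTR (adjusted p = 1.2e-09). In retinoic acid it was 3.48-fold higher in sh4 (1.80 ± 0.18, adjusted p = 1.1e-05). Serpinb9f read −7.78, −7.04, −7.49 and −6.87 on the untreated shCTR arrays and −5.41, −5.21, −5.44 and −4.98 on those of sh4. With retinoic acid, Serpinb9f read −4.17, −4.48, −4.06 and −4.12 in shCTR and −2.82, −2.87 and −2.57 in sh4. The 4 groups did not overlap and 2 of 4 untreated shCTR arrays were well above background, with a hairpin difference of 2.04 ± 0.18 untreated (adjusted p = 1.6e-06) and 1.46 ± 0.20 in retinoic acid (adjusted p = 1.4e-04). These probes share the 41-base run given above, so the values of Serpinb9f and Serpinb9g are not independent.

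Serpinb9e read −7.38, −7.12, −7.18 and −7.40 on the untreated shCTR arrays and −5.88, −5.98, −5.68 and −5.62 on those of sh4. With retinoic acid, Serpinb9e read −4.79, −5.02, −4.77 and −4.68 in shCTR and −3.45, −3.37 and −3.00 in sh4. Again the 4 groups stood apart, with 1.48 ± 0.12 between untreated and 1.54 ± 0.13 between treated hairpins (adjusted p = 6.5e-07 and 2.4e-06). With retinoic acid it changed by 2.46 in shCTR and 2.52 in sh4, both called. Its second probe gave 0.29 untreated (adjusted p = 0.34) and 0.88 in retinoic acid (adjusted p = 0.0083). That probe gave −0.05 for retinoic acid in shCTR, not called, and 0.55 for retinoic acid in sh4 (adjusted p = 0.036). The treated hairpin difference and retinoic acid in sh4 were thus called by both probes. The untreated hairpin difference and the rise in shCTR were called by the brightest probe only. Serpinb9c read −8.55, −8.02, −9.87 and −9.88 on the untreated shCTR arrays and −7.39, −8.24, −7.81 and −8.14 on those of sh4. With retinoic acid, Serpinb9c read −6.29, −5.99, −6.31 and −6.56 in shCTR and −4.47, −4.74 and −4.65 in sh4. The untreated groups overlapped and only 1 of the 8 untreated arrays was well above background. Serpinb9d read −8.86, −8.88, −10.01 and −8.47 on the untreated shCTR arrays and −8.82, −7.96, −8.40 and −7.97 on those of sh4. With retinoic acid, Serpinb9d read −6.56, −6.46, −6.50 and −6.67 in shCTR and −4.98, −4.84 and −4.90 in sh4. Serpinb9d likewise was well above background on 1 untreated array, and on all treated ones. In retinoic acid sh4 was higher, by 1.67 ± 0.39 for Serpinb9c (adjusted p = 0.0077) and by 1.64 ± 0.30 for Serpinb9d (adjusted p = 0.0013). The untreated difference of Serpinb9d (0.77 ± 0.27, adjusted p = 0.052) was called with slide as a block (adjusted p = 0.037). In shCTR they were at least 2.98-fold and at least 2.67-fold higher with retinoic acid.

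The untreated difference of this group rests on dim probes. In untreated shCTR the Serpinb9 probe gave 12.4 to 16.5 intensity units and the Serpinb9g probe 4.63 to 7.86, against 362 to 403 and 169 to 217 in treated sh4. With normexp, which adds an offset of 50, the untreated hairpin changes of Serpinb9, Serpinb9e, Serpinb9f and Serpinb9g were 0.24, 0.13, 0.26 and 0.15, and none was called. In the authors' deposited log2 values they were 0.39, 0.32, 0.44 and 0.34, and all 4 were called. With retinoic acid in shCTR the normexp changes of Serpinb9, Serpinb9e, Serpinb9f and Serpinb9g were 1.41, 0.47, 0.66 and 0.46, all called, and those of Serpinb9c and Serpinb9d were 0.05 and 0.04, not called. The treated hairpin differences of all 6 genes were called under both, at 0.64 to 1.19 with normexp. The call for Serpinb9c between untreated hairpins (1.18 ± 0.36, adjusted p = 0.026) was lost without untreated sh4 replicate 1 or 3 or shCTR replicate 3 or 4 (adjusted p = 0.057 to 0.083) and its sign turned with normexp (−0.12). Of 7 measured leukocyte serine proteases and granzymes, none was called between the hairpins in either condition. Gzmb, the granzyme B that Serpinb9 inhibits, was not among the 7. It was well above background on 1 of 4 untreated shCTR arrays and on no other array. Of 7 measured leukocyte markers none was called between untreated hairpins, with mean levels of the 8 listed of −5.17 to −4.32 in untreated shCTR and −5.24 to −4.48 in untreated sh4. Between treated hairpins 2 of the 7 were lower in sh4, Tyrobp (−3.14) and Csf1r (−1.08), with mean levels of −4.27 to −3.89 in treated shCTR and −5.14 to −4.48 in treated sh4, while the Serpinb9 genes were higher. The part of such cells was not tested.

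**Figure D3:**
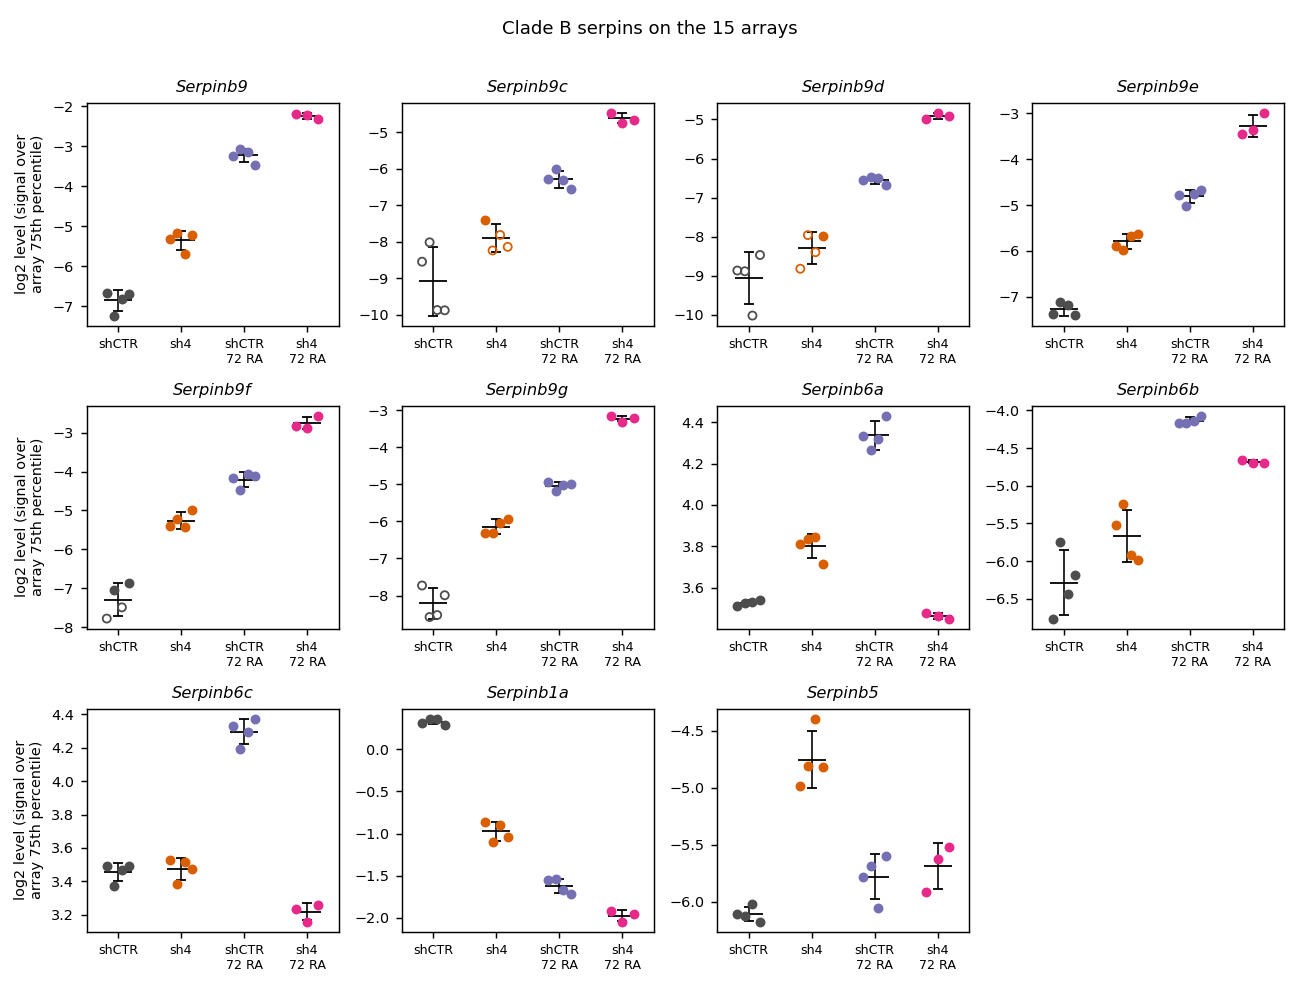
Log2 levels of 11 clade B serpins on each of the 15 arrays, by group (x axis), with open points where the probe was not well above background and bars for mean and SD. The 6 Serpinb9 genes step up from untreated shCTR to treated sh4, Serpinb6a, Serpinb6b and Serpinb6c peak in treated shCTR, Serpinb1a steps down, and Serpinb5 peaks in untreated sh4.

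Serpinb6a and Serpinb6c, at the other end of the cluster, were lower in treated sh4 than in treated shCTR. Serpinb6a encodes an abundant cytosolic inhibitor of trypsin-like proteases and cathepsin G, and Serpinb6c is its close paralogue. Serpinb6a read 3.51, 3.52, 3.53 and 3.54 on the untreated shCTR arrays and 3.81, 3.83, 3.85 and 3.72 on those of sh4. With retinoic acid, Serpinb6a read 4.34, 4.26, 4.32 and 4.43 in shCTR and 3.48, 3.46 and 3.45 in sh4. Untreated sh4 lay just above untreated shCTR, treated shCTR was highest and treated sh4 was lowest, with no overlap. Serpinb6c read 3.49, 3.37, 3.47 and 3.49 on the untreated shCTR arrays and 3.53, 3.38, 3.51 and 3.47 on those of sh4. With retinoic acid, Serpinb6c read 4.33, 4.19, 4.30 and 4.37 in shCTR and 3.24, 3.16 and 3.26 in sh4. The untreated groups overlapped, treated shCTR was highest and treated sh4 lowest. In retinoic acid sh4 was lower, at −0.87 ± 0.06 for Serpinb6a (adjusted p = 1.8e-07) and −1.08 ± 0.06 for Serpinb6c (adjusted p = 8.5e-08), and retinoic acid in shCTR gave 0.81 ± 0.05 and 0.84 ± 0.06. The untreated hairpin difference of Serpinb6a (0.27 ± 0.05, adjusted p = 0.001) was not called with median scaling (0.23). The small falls with retinoic acid in sh4 (−0.34 and −0.26) were called, but in the authors' deposited log2 values they were −0.05 and 0.0079, not called. The probes share the 26-base run given above, and a second Serpinb6c probe gave −1.26 between the treated hairpins (adjusted p = 5.7e-04).

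Serpinb6b lies between Serpinb1c and Serpinb9 on the chromosome. Serpinb6b read −6.76, −5.75, −6.44 and −6.19 on the untreated shCTR arrays and −5.52, −5.24, −5.92 and −5.99 on those of sh4. With retinoic acid, Serpinb6b read −4.17, −4.17, −4.14 and −4.07 in shCTR and −4.66, −4.69 and −4.70 in sh4. Treated shCTR was highest, then treated sh4, and the untreated groups overlapped. It rose by 2.15 ± 0.19 with retinoic acid in shCTR and 0.98 ± 0.21 in sh4, and the hairpin effects differed by −1.17 ± 0.29 (adjusted p = 0.01). Its untreated hairpin difference (0.62 ± 0.19, adjusted p = 0.029) was lost without untreated sh4 replicate 1 or 2 or shCTR replicate 1 or 3 (adjusted p = 0.074 to 0.088) and with normexp (0.0056), as was its rise in sh4 with normexp (0.34). Serpinb6e was not called in any comparison without a block. Its spread within groups was wide (SE 0.95 for the treated hairpin difference of −1.70) and with slide as a block it was called in all 5 comparisons, at −0.59 and −2.16 between untreated and treated hairpins, 0.66 and −0.92 with retinoic acid in shCTR and sh4, and −1.58 for the interaction (adjusted p = 4.0e-05 to 0.033).

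Serpinb1a, an inhibitor of neutrophil elastase and the first gene of the cluster, was lower in sh4 and lower with retinoic acid. Serpinb1a read 0.31, 0.36, 0.35 and 0.29 on the untreated shCTR arrays and −0.86, −1.10, −0.90 and −1.04 on those of sh4. With retinoic acid, Serpinb1a read −1.55, −1.54, −1.67 and −1.72 in shCTR and −1.92, −2.05 and −1.96 in sh4. The 4 groups stepped down without overlap in the order in which the Serpinb9 genes stepped up. Serpinb1a was 2.47-fold lower in untreated sh4 (−1.30 ± 0.07, adjusted p = 8.0e-09) and 3.86-fold lower with retinoic acid in shCTR (−1.95 ± 0.07, adjusted p = 1.3e-11), while its treated hairpin difference of −0.36 ± 0.07 was not called with normexp (−0.27) or median scaling (−0.33). Over the 1075 kb of chromosome 13 that hold 12 tested serpins, 7 were higher and 1 lower in untreated sh4, and 6 higher and 3 lower in treated sh4. With retinoic acid in shCTR 9 rose and 1 fell. Over all genes 14.5% were higher and 14.1% lower in untreated sh4, and 11.1% and 10.3% in treated sh4. With retinoic acid in shCTR 29.1% of all genes rose and 33.4% fell. Of the 4 other gene names in that stretch none was called between untreated hairpins, 1 was lower in treated sh4 and 2 fell with retinoic acid in shCTR. That 1 was Gm11390 (−1.80), which RefSeq calls Serpinb6d and which the name rule left out.

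**Figure D4:**
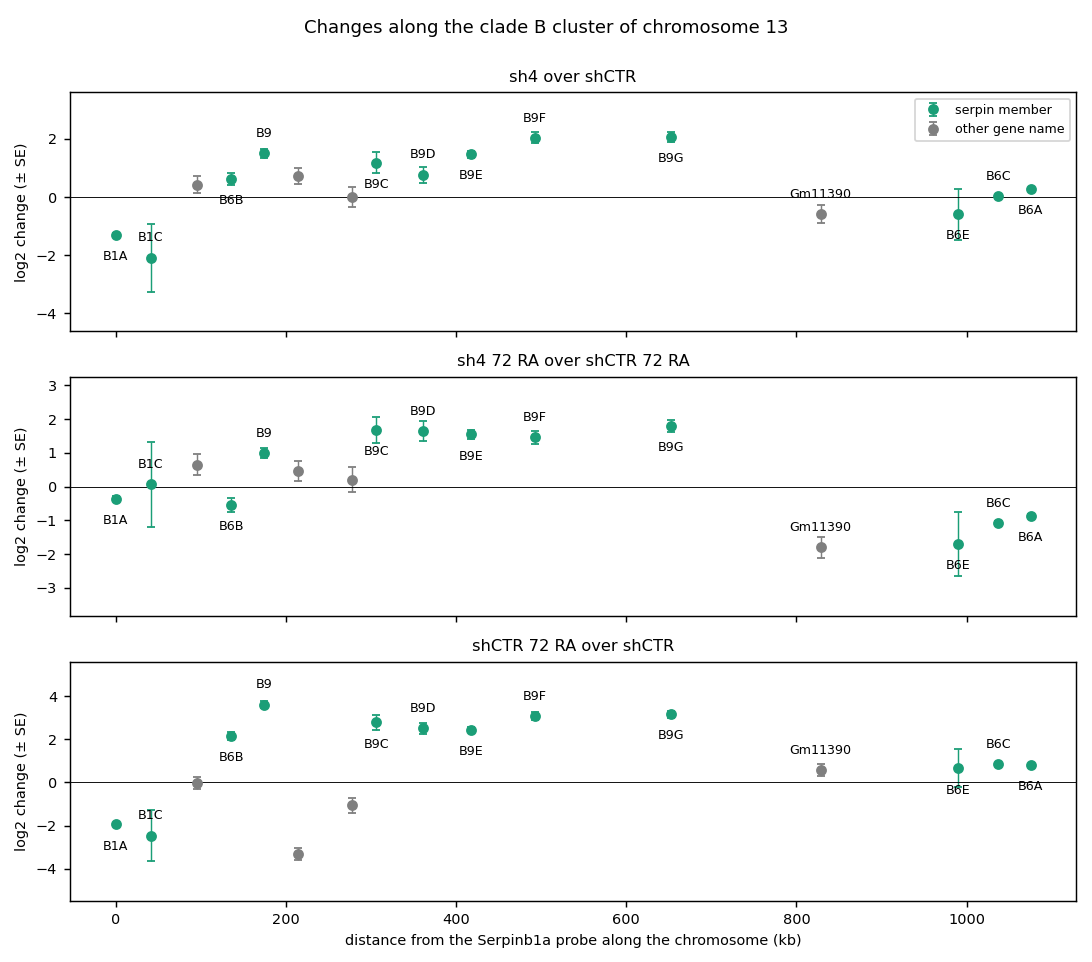
Log2 changes (± SE) of the 12 tested serpins and 4 other gene names along the chromosome 13 cluster, by distance from the Serpinb1a probe in kb, for the untreated hairpins (top), the treated hairpins (middle) and retinoic acid in shCTR (bottom). The Serpinb9 genes lie above 0 in all 3 panels, and Serpinb6a, Serpinb6c and Gm11390 lie below 0 in the middle one.

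Serpinb5, maspin, an epithelial serpin that does not act as a classical inhibitor, was highest in untreated sh4. Serpinb5 read −6.11, −6.12, −6.02 and −6.17 on the untreated shCTR arrays and −4.99, −4.81, −4.40 and −4.81 on those of sh4. With retinoic acid, Serpinb5 read −5.78, −5.69, −6.05 and −5.59 in shCTR and −5.92, −5.62 and −5.52 in sh4. Untreated sh4 lay above all other arrays, and treated shCTR overlapped both untreated shCTR and treated sh4. It was 2.55-fold higher in untreated sh4 (1.35 ± 0.13, adjusted p = 3.5e-06) and differed by 0.09 ± 0.14 between the treated hairpins (adjusted p = 0.76), an interaction of −1.26 ± 0.19 (adjusted p = 4.2e-04). With retinoic acid in sh4 it fell by 0.93 on the log2 scale (SE 0.14). With normexp the untreated difference was 0.34 and not called. Its small rise with retinoic acid in shCTR (0.33) was lost without any 1 of 10 arrays (adjusted p = 0.054 to 0.13): each untreated shCTR array, treated shCTR replicates 1, 2 and 4, untreated sh4 replicates 2 and 4, and treated sh4 replicate 3. It was also lost with the replicate block (adjusted p = 0.054) and turned with normexp (−0.13). Markers of trophectoderm and placenta were higher with this gene in untreated sh4: 5 of 7 measured were called, led by Cdx2 (4.16), Krt7 (4.02) and Hand1 (3.04). Their mean level over the 8 on the array was −3.54 to −3.42 in untreated shCTR, −1.99 to −1.73 in untreated sh4, −1.84 to −1.74 in treated shCTR and −1.89 to −1.79 in treated sh4. In both treated groups the marker means lay within the range of untreated sh4, whereas Serpinb5 lay below it. The mean hides opposite moves of single markers: with retinoic acid in sh4, 4 of the 7 fell and 2 rose. The interaction was negative for 5 of the 7 and positive for none, and it was negative for Serpinb5 too. The part of such cells in the Serpinb5 difference was not tested. The other tested genes of the clade B cluster on chromosome 1, Serpinb3c, Serpinb8, Serpinb11 and Serpinb12, had no call. Serpinb8, an inhibitor of furin, had a mean level of 2.86 in untreated shCTR (SD 0.368, n = 4) and changes of −0.01 to 0.14 over the comparisons of 2 groups.

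Among the wider list of serpin target proteases, the membrane-bound serine proteases were mostly higher in sh4. Of 8 measured, 6 were higher and 1 lower in untreated sh4 (median 1.14, against 0.02 for all genes), with Tmprss2, well above background on 1 of 4 untreated shCTR arrays, at 3.66, Prss8, prostasin, at 2.57 and Tmprss4 at 1.48. In retinoic acid 6 were higher and none lower. Of 9 cathepsins, 5 were lower and none higher in treated sh4, led by Ctsc, the activator of granule proteases (−2.06). Of the 6 genes of serpin clearance, 4 rose with retinoic acid in shCTR. In treated sh4 Lrp2 (−1.26), megalin, and its chaperone Lrpap1 (−2.25) were lower and Sort1 (0.37) was higher.

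The hairpin effects without and with retinoic acid share no array. Of the 15 serpins whose effects differed by the test of the interaction, the 11 negative ones included Serpina10, Serpina3c, Serpina3m, Serpinb5, Serpinb6a, Serpinb6b, Serpinb6c, Serpine2, Serping1 and Serpinh1. The 4 positive ones were Serpinb1a, Serpinc1, Serpinf1 and Serpini1. None of the 6 Serpinb9 genes was among them here, at −0.58 to 0.87. In the authors' deposited values, however, the interaction of Serpinb9, Serpinb9c, Serpinb9d, Serpinb9e and Serpinb9g was positive and called, at 0.42 to 0.79. The interaction of Serpinc1 was lost without any 1 of 8 arrays (adjusted p = 0.056 to 0.084): treated sh4 replicates 1 and 3, untreated sh4 replicate 2, treated shCTR replicates 1, 3 and 4, and untreated shCTR replicates 1 and 2. That of Serpini1 was lost without treated sh4 replicate 4 (adjusted p = 0.056). With median scaling those of Serpine2, Serpinf1, Serping1 and Serpini1 were not called (adjusted p = 0.059 to 0.21). Calls were gained for Serpinb9 without untreated sh4 replicate 3 (−0.62) and for Serpinb9d without untreated shCTR replicate 3 (1.19). Within slides, all 15 interactions kept their sign on each of the 3 slides that held all groups, as did all 16 treated and 13 of 14 untreated hairpin calls on every slide that held both groups, the exception being Serpinb9c. The 25 calls of retinoic acid in sh4 kept theirs too, and 26 of 27 in shCTR. The calls were made on these same arrays, so this agreement of signs is a description and adds no separate support. With slide as a block all of these calls remained, and the counts were 20 (14 up, 6 down) untreated and 21 (9 up, 12 down) in retinoic acid.

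**Figure D5:**
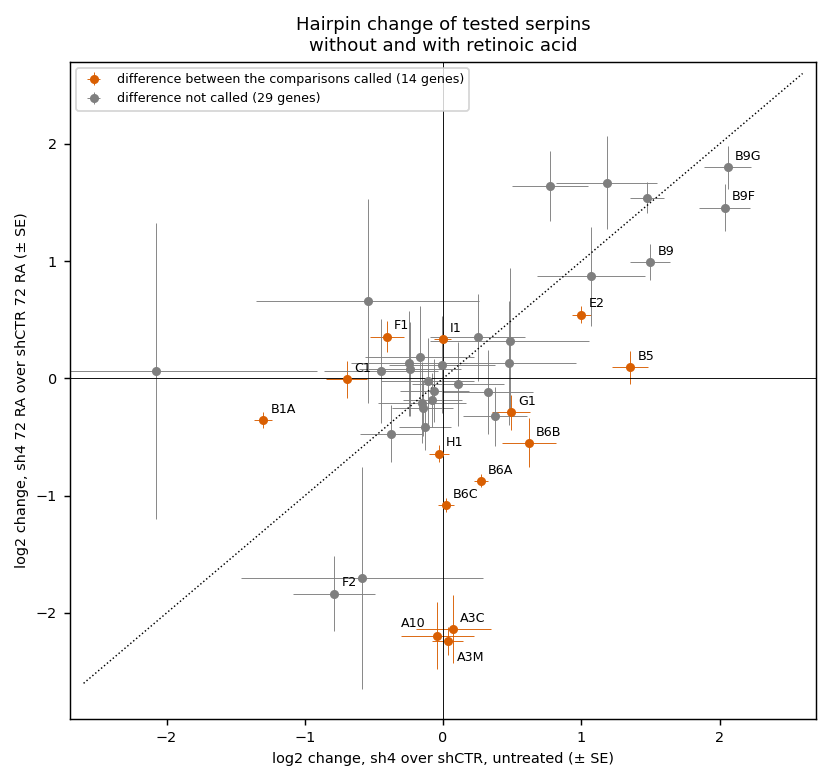
Hairpin change (sh4 over shCTR, log2 ± SE) of tested serpins, untreated (x axis) against in retinoic acid (y axis), with the dotted line where both are equal. Genes whose change differed by the interaction test are orange and, with 4 others, labelled by the part of the name after Serpin; Serpina10, Serpina3c and Serpina3m lie near 0 on the x axis and below −2 on the y axis, and the Serpinb9 genes lie above 0 on both.

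Of the 44 tested serpins, 17 were called in no comparison by the brightest probe without a block: Serpina11, Serpina1a, Serpina1c, Serpina1d, Serpina1e, Serpina3b, Serpina3f, Serpina3h, Serpina3k, Serpina6, Serpina9, Serpinb11, Serpinb12, Serpinb1c, Serpinb3c, Serpinb6e and Serpinb8. The Serpina1 genes encode alpha-1-antitrypsins, the main plasma inhibitors of neutrophil elastase, and 4 of the 5 tested (Serpina1a, Serpina1c, Serpina1d and Serpina1e) differed by −0.60 to 0.35 over the comparisons of 2 groups. The Serpina1c and Serpina1d probes list transcripts of other Serpina1 genes, so their values are not those of 1 gene. Serpinb1c had fitted changes of −2.08 ± 1.17 between untreated hairpins and −2.47 ± 1.17 with retinoic acid in shCTR, neither called (adjusted p = 0.24 and 0.084). With slide as a block both were called (adjusted p = 0.0048 and 6.3e-04), as was the treated hairpin difference of Serpina1a (−0.52, adjusted p = 0.047).

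In untreated shCTR the mean level (n = 4) was −2.99 (SD 0.31) for Serpina11, −4.34 (SD 0.18) for Serpina3b, −5.31 (SD 0.18) for Serpina9 and −4.06 (SD 0.43) for Serpinb3c, all well above background on all 15 arrays. The fall of Serpinb3c with retinoic acid in shCTR (−0.56) missed the threshold here (limma adjusted p = 0.15) and passed it with slide as a block (adjusted p = 0.019), as did its fall in sh4 (−0.71, adjusted p = 0.010). Without untreated shCTR replicate 3 Serpinb12 was called as falling with retinoic acid in shCTR (−1.01, adjusted p = 0.019), and without untreated sh4 replicate 2 Serpina1a as lower in untreated sh4 (−0.61, adjusted p = 0.022). Serpina3f, Serpina3k, Serpinb11 and Serpinb12 lay near the limit of detection, well above background on 11, 8, 10 and 13 arrays. Of the 15 serpins that were not tested, Serpina4-ps1 was well above background on 1 array, Serpinb3a on 3, spread over 3 groups, and Serpini2 on 3, all treated. The other 12 were well above background on none. Among these were Serpinb2, Serpina5, the protein C inhibitor, and Serpina12, the adipokine vaspin.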

How the data were processed

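Total RNA (500 ng per sample) from 15 samples was hybridised to 1-colour Agilent arrays. The authors deposited 1 scanner text file per array, whose intensity values are, per the file headers, processed signals from Feature Extraction 10.7.3.1 (background-subtracted, Cy3). They also deposited log2 values whose method no source used here gives; their column medians are all 7.49 and they match normexp (offset 50) followed by quantile normalisation to a median absolute difference of 3.4e-10. The deposited log2 values served as an alternative.

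Control spots and 117 of 39429 probes with marked spots were left out, log2 of the processed signal was centred on each array's 75th percentile, spots of a probe were averaged, and probes well above background on 3 or more arrays of a group were kept (31179). One model over all 4 groups was fitted to the brightest probe of 25090 genes with limma 3.58.1 in R 4.3.3, with Benjamini-Hochberg adjustment; SEs are moderated. The code was tested on simulated data. Where a group was well above background on no array, "at least" folds set it, per array, to the higher of the lowest signal well above background and its own. Members are named, except 1 that is not reported here, and those called with at least a 2-fold change have their value on every array. Of the other lists at most the 3 largest called changes per comparison are named. Members and lists were chosen with earlier results of these data known.

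Same-numbered arrays of one slide correlated at r = 0.115 to 0.578 in their deviations from group means, those of different slides at −0.533 to 0.558, and differently numbered arrays of one slide at 0.408 to 0.607. Only treated sh4 replicates 3 and 4 lay on another slide than the arrays of their number. Replicate 3 correlated with those arrays at −0.533 to −0.348 and replicate 4 at 0.412 to 0.558. Number and slide otherwise coincided, so whether the numbers pair the samples beyond the slide cannot be told. Alternatives were the background correction, scaling, filter, probe choice, samples in the fit, slide and replicate blocks, spot marks, and leaving out arrays. Promoters are from RefSeq (GRCm38.p6) for 48 of 59 members, and probe positions are those of the files (mm9). Protein sequences were not used here.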

Additional observations from a re-analysis of the deposited data

Results flagged for a closer look

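In 132 groups of 4 arrays examined, 3 held a serpin value far from the other arrays of its group; chance gives about 1 in 20. Serpina3n read −8.85 in untreated sh4 replicate 4 and −10.06 to −9.87 on the other arrays, none of them well above background. Serpinb12 read −9.58 in untreated shCTR replicate 3 and −6.97 to −6.47 on the others. Serpinf1 read −2.38 in untreated sh4 replicate 2 and −2.08 to −2.06 on the others.

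The hairpin effect differed between untreated and treated cells for the serpins given here by limma's test of the interaction, given as log2 in retinoic acid minus untreated. It was −2.15 for Serpina10, −2.21 for Serpina3c, −2.27 for Serpina3m, −1.26 for Serpinb5, −1.15 for Serpinb6a, −1.17 for Serpinb6b and −1.10 for Serpinb6c. It was −0.46 for Serpine2, −0.78 for Serping1 and −0.61 for Serpinh1. It was positive for Serpinb1a at 0.95, Serpinc1 at 0.69, Serpinf1 at 0.76 and Serpini1 at 0.33. Of these, Serpina3c, Serpinb5, Serpinb6b, Serpinc1, Serpine2 and Serpini1 were not called with normexp.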

How the results depend on the processing

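Of the serpin changes recomputed under the alternatives, 5635 kept their direction and side of the threshold, 90 lost the call, 76 gained one and 10 reversed. The reversals with normexp were Serpina3n at −0.12, Serpinb11 at −0.31, Serpinb5 at −0.13 and Serpind1 at −0.050 (retinoic acid in shCTR), Serpinb9c at −0.12 (untreated hairpins) and Serpinb9g at 1.04 (interaction). Those in the authors' deposited values were Serpinb6c at 0.0079 (retinoic acid in sh4) and the interactions of Serpinb9 at 0.42 and Serpinb9g at 0.79. With the mean over probes, Serpina3h reached 1.74 with retinoic acid in shCTR. The cause of these reversals was not tested. With normexp 6 serpins were called between untreated hairpins (4 up), 7 fell with retinoic acid in shCTR, and 4677, 3378 and 3087 genes in all were called for the untreated hairpins, treated hairpins and interaction, against 7179, 5362 and 5160. Median scaling gave 5 serpins down with retinoic acid in shCTR, 2 positive interactions, and 3290 genes with one; quantile normalisation gave 6 down. The authors' values gave 7 positive interactions. Requiring a probe well above background on all arrays left 17 serpins called (15 up) with retinoic acid in shCTR, 15 (10 up) in sh4 and 10 (4 up) between treated hairpins, since fewer genes were tested. With slide as a block 6 serpins were lower between untreated hairpins and 5 fell with retinoic acid in shCTR.

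With the replicate number as a block, 16, 18, 27, 25 and 15 serpins were called for the untreated hairpins, treated hairpins, retinoic acid in shCTR and in sh4, and the interaction; of the calls without the block, Serpinb5 with retinoic acid in shCTR was lost and no other. Leaving out 1 array at a time gave 11 to 15, 16 to 18, 26 to 27, 25 to 26 and 14 to 16 calls in the same order.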

Other observations

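Inhibitors outside the serpin family also changed. Of 24 measured, 13 rose and 5 fell with retinoic acid in shCTR, among them Timp2 (4.19), an inhibitor of matrix metalloproteases. Tfpi2, a Kunitz inhibitor of plasmin and trypsin, and Stfa1, a cystatin of the stefin type, also rose, but were well above background on no untreated shCTR array, so their fitted changes give no fold. In treated sh4 8 were lower and 3 higher than in treated shCTR, among them Ambp (−2.04), the precursor of bikunin, and Cst3 (−1.32), cystatin C. Of 8 measured tissue kallikreins, 6 were lower and none higher in untreated sh4, with Klk13 at −1.67, Klk1 at −1.08 and Klk11 at −0.93. With retinoic acid in shCTR 5 of these 8 fell, Klk1 by 4.84 on the log2 scale, with 2 of 4 treated arrays well above background, and Klk6 rose, from no untreated shCTR array well above background to all 4 treated ones.

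Gm11390, named Serpinb6d in RefSeq and outside the name rule, lies in the chromosome 13 cluster and differed by −1.80 ± 0.32 (SE) between the treated hairpins (limma adjusted p = 0.0011), while its untreated difference of −0.58 was not called (adjusted p = 0.18). Gm4931, named Serpina3j in RefSeq, did not pass the filter on dim probes.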
